A study of Homo sapiens with 6 samples.

Results

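The nuclear-encoded subunits of the mitochondrial respiratory chain and ATP synthase were followed on 6 Affymetrix arrays of human cancer cell lines. Members were the rows of the value table with 1 annotated protein-coding symbol whose name begins as the subunits of complexes I to V do (NDUFA, NDUFB, NDUFC, NDUFS, NDUFV, SDHA to SDHD, UQCR, COX4I, COX5 to COX8, ATP5), with assembly factors left out and the row of highest mean kept for each gene. This gave 79 of 18417 genes, namely 34 subunits of complex I, 3 of complex II, 7 of complex III, 17 of complex IV and 18 of complex V. The study knocked down or overexpressed NRF3, a CNC-type bZIP transcription factor that is the product of NFE2L3. The groups were HCT116 colon cancer cells with NRF3 siRNA or control siRNA, HCT116-p53KO cells (an HCT116 derivative labelled as a p53 knockout) with NRF3 siRNA or control siRNA, and H1299 lung carcinoma cells in stable lines for NRF3 or GFP, made with plasmid DNA and G-418. The siRNA was transient and RNA was taken 48 h after transfection. Each group had 1 array, so a difference within a line had no replicate check. Neither the siRNA sequences nor the number of clones behind the knockout and stable lines is stated in the labels.

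Complex I oxidises NADH and complex II oxidises succinate, and both pass electrons to ubiquinone. Complex III passes them through cytochrome c to complex IV, which reduces oxygen. Complexes I, III and IV pump protons, and complex V, the ATP synthase, uses the proton gradient to make ATP. Complexes I, III, IV and V also hold subunits encoded by mitochondrial DNA, so their assembly needs both genomes. Transcription of the nuclear subunit genes is classically tied to nuclear respiratory factor 1 (NRF1, a protein unrelated to NRF3 and to the NFE2L1 product of the same short name) and to the ETS factor GABP.

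Values are RMA log2 intensities as the authors deposited them, and a difference is the first named array minus the second on that log2 scale. NFE2L3 had levels of 6.62 with NRF3 siRNA and 8.97 with control siRNA in HCT116, 7.15 with NRF3 siRNA and 8.71 with control siRNA in HCT116-p53KO, and 10.20 with NRF3 and 8.18 with GFP in H1299, so each pair differed in the labelled direction. Over all probe sets the arrays of the HCT116 family had medians of 6.95 to 7.0, against 6.05 and 6.08 for H1299, and levels were therefore not compared between these sets. Of 10 colon epithelium markers, 7 reached a log2 intensity of 6 on each HCT116-family array, with summed levels of 82.0 to 85.4. Of 5 mesenchymal markers 4 reached 6 on each of the 6 arrays, with summed levels of 40.0 with NRF3 and 40.6 with GFP in H1299. In H1299 0 of 4 lung epithelium markers reached 6. The summed level of 3 leukocyte markers was 11.4 to 14.3 over the 6 arrays, with 0 of 3 at 6 or more. The gene removed in HCT116-p53KO is not analysed here.

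Most subunits were strongly detected in all 3 lines. A log2 intensity of 6 or more was reached by 76 of 79 members on each HCT116-family array, by 72 with NRF3 in H1299 and by 73 with GFP. The median member level was 9.79 with NRF3 siRNA and 9.89 with control siRNA in HCT116, 9.81 with NRF3 siRNA and 9.82 with control siRNA in HCT116-p53KO, and 9.19 with NRF3 and 9.27 with GFP in H1299. By complex, the median on the control siRNA array of HCT116 was 9.79 for complex I, 11.32 for complex II, 9.50 for complex III, 9.48 for complex IV and 10.74 for complex V. The 3 members below 6 throughout the HCT116 family were the complex IV isoforms COX6B2, COX7B2 and COX8C. ATP5PB, ATP5MGL, COX4I2, COX6B2, COX7A1 and COX8C were below 6 on both H1299 arrays, and COX7B2 on one of them. A member was counted as measured in a pair if it reached 6 on at least 1 of the 2 arrays.

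**Figure D1:**
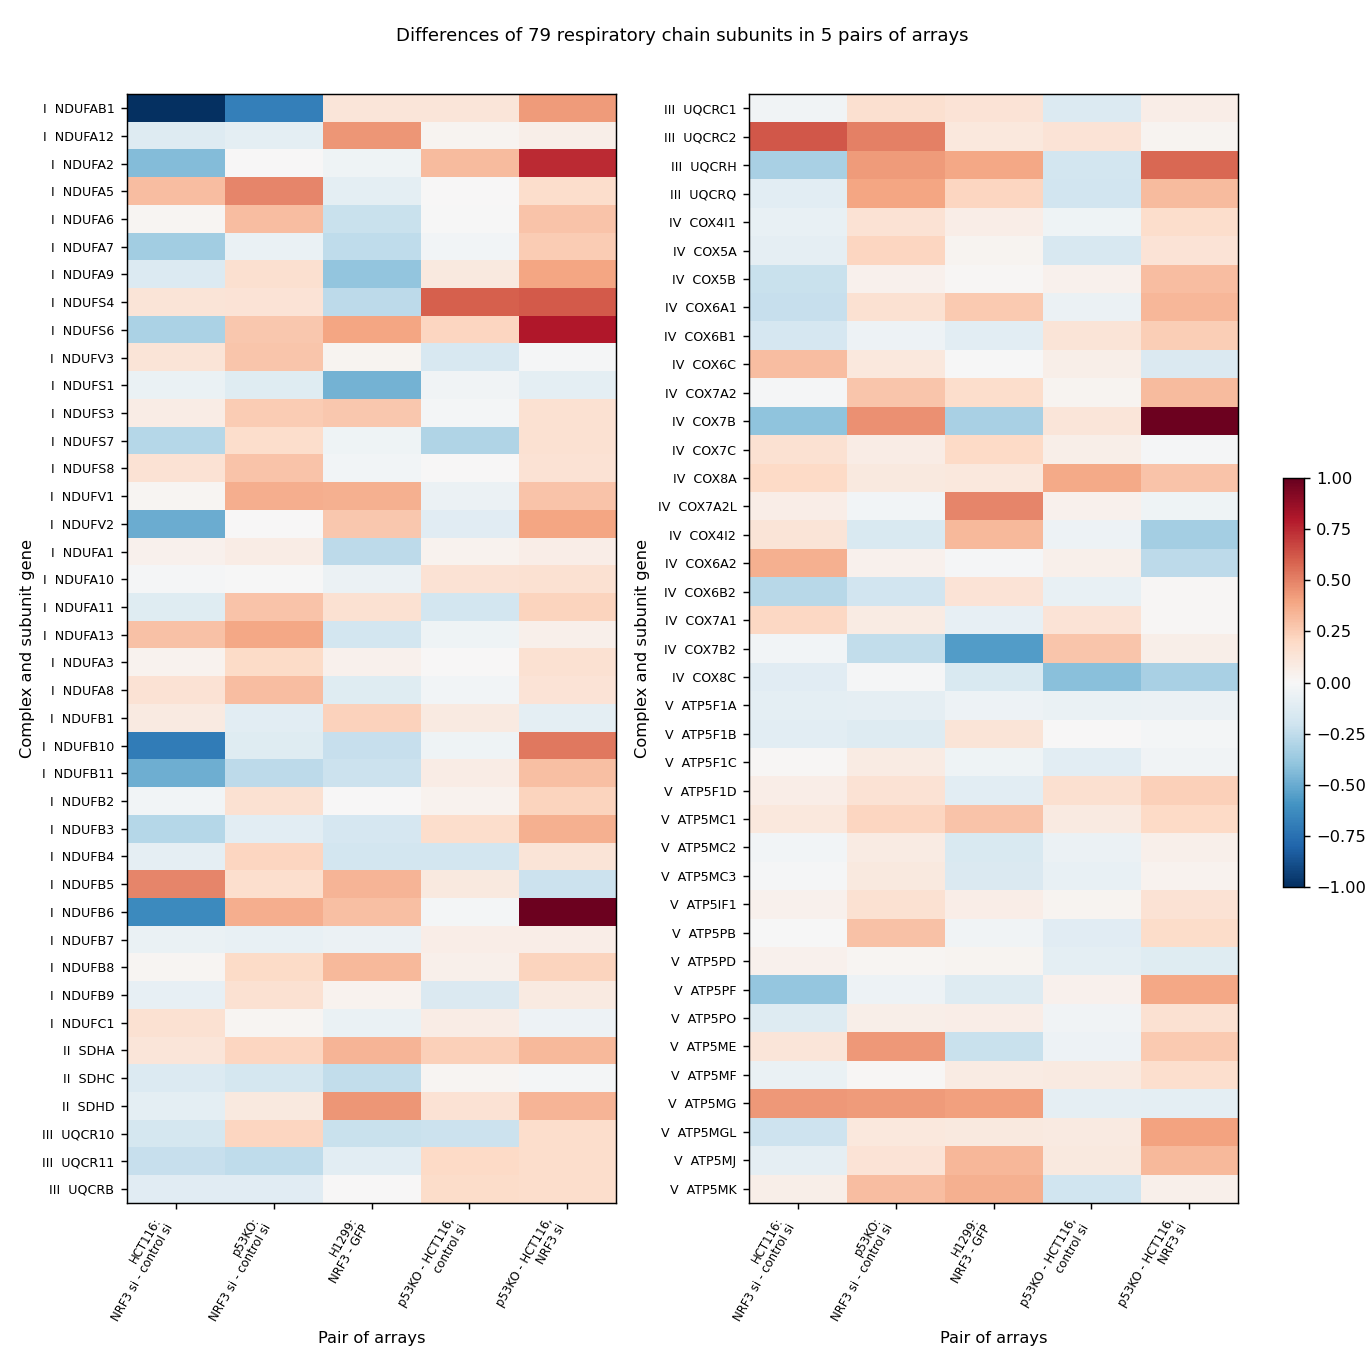
Each cell gives the difference in RMA log2 intensity of 1 subunit in 1 pair of arrays, with red for higher and blue for lower on the first named array. The rows are the 79 subunits with their complex, and the darkest cells are NDUFAB1 in the HCT116 knockdown (-0.99) and NDUFB6 and COX7B between the lines with NRF3 siRNA (0.98 each).

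In HCT116 the subunits as a group lay near 0 after NRF3 knockdown, and the lowest were complex I subunits, led by NDUFAB1 (-0.99), NDUFB10 (-0.70) and NDUFB6 (-0.64). Of 76 measured members, 32 were higher and 44 lower with NRF3 siRNA than with control siRNA, with a median difference of -0.03 and a range of -0.99 to 0.62, while the median of all 14034 measured genes was 0.01. A difference of 0.32 or more on the log2 scale, used as the threshold of size throughout, was found for 14 of 76 members, 4 higher and 10 lower, against 30.1% of all measured genes in either direction, 13.0% higher and 17.1% lower. At 1.5-fold the count was 4, against 8.74% of genes. The 42.1% of members that were higher compares with 51.6% of all genes and 40.0% of the 3324 genes with a mean level of 9 or more, where most members lie. Quantile normalization repeated over the 6 arrays put 52.6% of members higher and moved their median to 0.0144. In bulk RNA, fewer cells carrying a transcript and less of it per cell cannot be told apart.

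In HCT116-p53KO, NRF3 siRNA was accompanied by small positive differences across the 5 complexes. Of 76 members, 57 were higher and 19 lower, with a median of 0.14 and a range of -0.69 to 0.50, against a median of 0.00 over 13680 genes. The share above 0 was 75% among members, 50.5% among all genes and 55.8% among genes with a mean of 9 or more. At 0.32 or more, 10 members were higher and 1 lower, against 22.8% of all genes in either direction, 13.7% higher and 9.18% lower. At 1.5-fold the count was 1, NDUFAB1, against 6.0% of genes. By complex, the medians were 0.16 for complex I, 0.10 for complex II, 0.21 for complex III, 0.09 for complex IV and 0.10 for complex V.

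The cell lines were the only replication of the knockdown. A limma model of the 4 HCT116-family arrays with cell line as a block tested the siRNA effect over all 14148 genes. Its p-values, adjusted by Benjamini-Hochberg, set each estimate against a spread between the lines pooled over all genes (SE 0.162). A gene's own agreement between the lines therefore had no weight, and the smallest estimate called was 0.46 in size. The model called 2 of 76 members at an adjusted p of 0.05, against 9.88% of all genes, 4.45% higher and 5.43% lower. NDUFAB1 fell and UQCRC2 rose, and 8 of 76 members had an unadjusted p under 0.05, against 2885 of 14148 genes. Of the colon epithelium markers 7 were tested, and 3 fell: KRT8 by 0.62, KRT18 by 0.51 and CDH1 by 0.60. The other 4 had estimates of -0.18 to 0.11. Of 4 mesenchymal markers tested, SNAI2 fell by 0.70, and the other 3 had estimates of -0.30 to -0.02. The part of these markers in the subunits' differences was not tested.

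**Figure D2:**
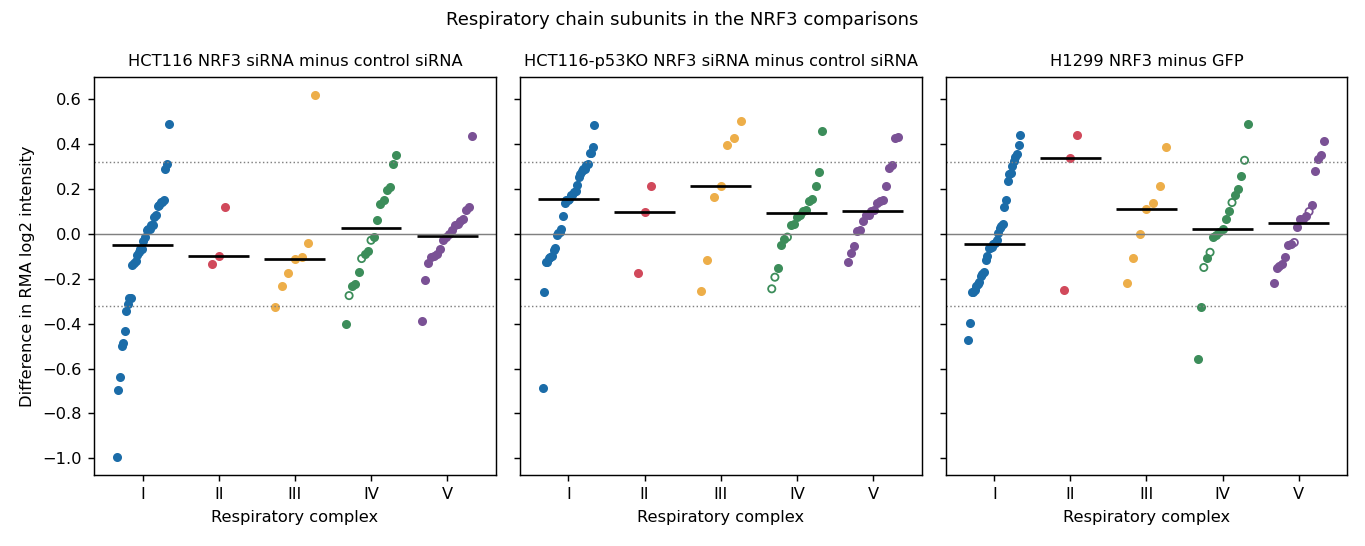
Points are subunits, grouped by complex on the horizontal axis, and the vertical axis gives the difference in RMA log2 intensity in each NRF3 comparison. Black bars are medians of measured members, open circles are members below 6 on both arrays, and dotted lines mark the threshold of 0.32. The complex I median was -0.05 for the HCT116 knockdown, 0.16 for the HCT116-p53KO knockdown and -0.04 for H1299.

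NDUFAB1 encodes the mitochondrial acyl carrier protein, which serves fatty acid and lipoate synthesis and iron-sulfur cluster assembly and sits in complex I as an accessory subunit. Its level was 8.70 with NRF3 siRNA and 9.69 with control siRNA in HCT116, which was 1.99-fold lower. In HCT116-p53KO it was 9.13 with NRF3 siRNA and 9.82 with control siRNA, or 1.61-fold lower. Both NRF3 siRNA arrays lay below both control siRNA arrays. The limma estimate was -0.84 (SE 0.162, adjusted p = 1.677e-05). In H1299, NDUFAB1 was at 8.52 with NRF3 and 8.40 with GFP, a difference of 0.12. The call held in 5 of 7 other settings of the limma fit. These include the adjusted p of 0.10, a looser threshold on the same p-values, under which the call could not be lost. It was lost with the prior taken from the 6-array fit (adjusted p = 0.1333) and with the spread of each gene alone (adjusted p = 0.6425), and its adjusted p ranged from 1.334e-07 to 0.6425 over the settings. Of all 14148 genes, 0 were called with that prior and 3 with the spread of each gene alone.

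UQCRC2 encodes core protein 2 of complex III, part of its large matrix domain. In HCT116 it was at 11.95 with NRF3 siRNA and 11.33 with control siRNA, or 1.53-fold higher. In HCT116-p53KO it was at 11.97 with NRF3 siRNA and 11.47 with control siRNA, or 1.42-fold higher. The 2 NRF3 siRNA arrays differed by 0.02 and both lay above both control arrays. The limma estimate was 0.56 (SE 0.162, adjusted p = 0.009369), and the call was lost under the same 2 settings (adjusted p = 0.214 and 0.6362, the lowest over the settings being 3.437e-06). PDZD9, which overlaps UQCRC2, differed by 0.00 in HCT116 and 0.12 in HCT116-p53KO. In H1299, UQCRC2 was at 10.63 with NRF3 and 10.52 with GFP. Its partner core protein UQCRC1 differed by -0.04 in HCT116 and 0.16 in HCT116-p53KO, and 0.14 in H1299.

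ATP5MG encodes subunit g of ATP synthase, a small membrane protein near the interface of enzyme dimers. It was at 11.45 with NRF3 siRNA and 11.01 with control siRNA in HCT116, and at 11.35 with NRF3 siRNA and 10.92 with control siRNA in HCT116-p53KO. In H1299 it was at 11.09 with NRF3 and 10.68 with GFP. The 3 differences were 0.44, 0.43 and 0.41, so ATP5MG was higher with NRF3 siRNA in both HCT116 lines and higher with NRF3 expression in H1299. It was the only member higher by 0.32 or more in all 3 pairs, against 0.986% of all genes. The limma knockdown estimate of 0.43 did not pass (SE 0.162, adjusted p = 0.07034). It did with a trended robust prior (adjusted p = 0.002029) and at the looser threshold of an adjusted p of 0.10. RefSeq lists 8 pseudogenes under the name of ATP5MG, whose transcripts could share its probes.

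**Figure D3:**
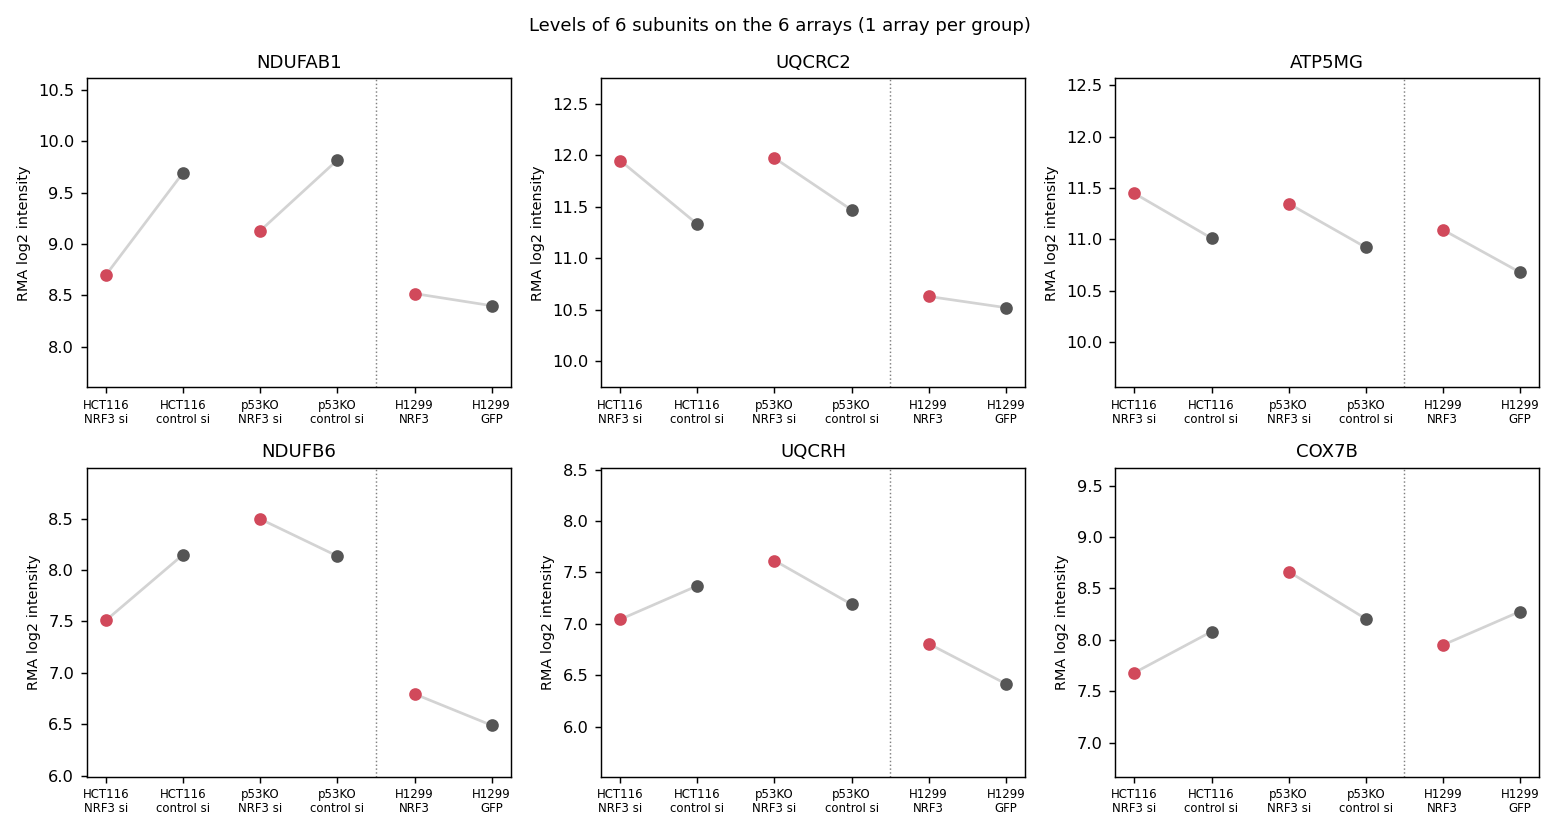
Each panel gives the RMA log2 intensity of 1 subunit on the 6 arrays over a window of equal height, with NRF3 siRNA or NRF3 in red and its control siRNA or GFP in grey. Grey lines join the arrays of a line, and the dotted line separates the H1299 arrays, whose levels are on another distribution. NDUFAB1 is lower and UQCRC2 and ATP5MG are higher with NRF3 siRNA in both HCT116 lines, while NDUFB6, UQCRH and COX7B differ in opposite directions.

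The promoters of these 3 genes are shown with those of NDUFB4 and SDHD, which carry a full NRF1 motif. Each is the 250 bases before the RefSeq gene start (GRCh38.p14), read 5′ to 3′ along the gene's strand. The NDUFAB1 window is chr16:23596317-23596566 on the minus strand, and the others are on the plus strand, at chr16:21953111-21953360 for UQCRC2, chr11:118401356-118401605 for ATP5MG, chr3:120596086-120596335 for NDUFB4 and chr11:112086623-112086872 for SDHD. Capitals mark matches to the motifs searched, on either strand.
NDUFAB1: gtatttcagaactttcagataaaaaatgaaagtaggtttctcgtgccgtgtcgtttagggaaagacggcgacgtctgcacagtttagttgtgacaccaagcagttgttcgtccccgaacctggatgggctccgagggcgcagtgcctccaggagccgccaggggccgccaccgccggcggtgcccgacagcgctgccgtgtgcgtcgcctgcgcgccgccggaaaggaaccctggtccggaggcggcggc
UQCRC2: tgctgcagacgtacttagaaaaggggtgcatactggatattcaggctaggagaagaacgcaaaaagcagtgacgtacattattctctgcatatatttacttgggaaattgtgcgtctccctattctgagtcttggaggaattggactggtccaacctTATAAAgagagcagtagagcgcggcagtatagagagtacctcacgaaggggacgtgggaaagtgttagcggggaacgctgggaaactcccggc
ATP5MG: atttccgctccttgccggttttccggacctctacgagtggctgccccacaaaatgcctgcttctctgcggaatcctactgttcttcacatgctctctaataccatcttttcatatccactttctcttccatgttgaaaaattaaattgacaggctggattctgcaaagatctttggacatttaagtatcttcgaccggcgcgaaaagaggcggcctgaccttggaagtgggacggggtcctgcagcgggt
NDUFB4: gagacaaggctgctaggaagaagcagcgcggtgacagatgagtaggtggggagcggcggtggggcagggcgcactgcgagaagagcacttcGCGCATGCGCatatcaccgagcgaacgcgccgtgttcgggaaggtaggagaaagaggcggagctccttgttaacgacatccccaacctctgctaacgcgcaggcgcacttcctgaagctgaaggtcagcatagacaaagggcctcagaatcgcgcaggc
SDHD: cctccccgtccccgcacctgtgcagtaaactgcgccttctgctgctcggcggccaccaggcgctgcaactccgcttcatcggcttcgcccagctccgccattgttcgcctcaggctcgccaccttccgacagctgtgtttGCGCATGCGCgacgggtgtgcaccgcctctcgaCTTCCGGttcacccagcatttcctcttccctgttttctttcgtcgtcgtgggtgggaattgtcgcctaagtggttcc

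The bases shown for NDUFAB1 and ATP5MG hold no match, though ATP5MG has an ETS/GABP match in the 50 bases after the start, which enters the shares below, and UQCRC2 holds a TATAAA that begins 93 bases before the start. The NRF1 motif begins 159 bases before the start in NDUFB4 and 110 bases before it in SDHD, which also has an ETS match, CCGGAAG on the opposite strand, 77 bases before the start. Over windows of 300 bases (250 before to 50 after the start), matched for 67 of 79 members, the full palindromic NRF1 motif, which holds the core below on both strands, was found in 5.97% of member promoters and 1.755% of 15843 protein-coding promoters. The core GCATGCG, which overlaps the full motif, was in 17.9% of member promoters and 5.14% of all, and the ETS/GABP motif CCGGAAG in 28.4% of member promoters and 14.2% of all. The antioxidant response element TGACNNNGC, bound by CNC factors with small MAF proteins, was in 14.9% of member promoters and 14.3% of all, and TATAAA in 10.4% of member promoters and 9.63% of all. These are matches of letters in one window and say nothing of binding. NDUFB4 itself differed by -0.09, 0.22 and -0.19 in HCT116, HCT116-p53KO and H1299, and SDHD by -0.10, 0.10 and 0.44.

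Of 34 complex I members, 7 were lower by 0.32 or more after knockdown in HCT116 (20.6%, against 17.1% of all genes and 21.3% of genes with a mean level of 9 or more). In the membrane arm, NDUFB10 was at 10.19 with NRF3 siRNA and 10.89 with control siRNA in HCT116, or 1.62-fold lower, but at 10.72 with NRF3 siRNA and 10.84 with control siRNA in HCT116-p53KO. NDUFB11, another membrane-arm accessory subunit, differed by -0.49 in HCT116 and -0.26 in HCT116-p53KO. The limma estimates were -0.41 for NDUFB10 and -0.37 for NDUFB11 (SE 0.162 each), and neither passed, though both did with a trended robust prior and NDUFB10 also at an adjusted p of 0.10. NDUFB5, in the same arm, was on the other side of 0, at 10.39 with NRF3 siRNA and 9.90 with control siRNA in HCT116. Of 18 membrane-arm accessory members, 8 were higher and 10 lower in HCT116, and 12 were higher and 6 lower in HCT116-p53KO. Among all genes, 51.6% were higher in HCT116 and 50.5% in HCT116-p53KO.

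In the hydrophilic arm, which holds the flavin and the iron-sulfur clusters, NDUFV2, a core iron-sulfur subunit, was at 10.39 with NRF3 siRNA and 10.89 with control siRNA in HCT116. In HCT116-p53KO its levels were 10.79 with NRF3 siRNA and 10.78 with control siRNA. Its second probe set differed by -0.49 in HCT116 and -0.01 in HCT116-p53KO, close to the first. NDUFA2, an accessory subunit, differed by -0.43 in HCT116 and 0.01 in HCT116-p53KO, and NDUFA7 by -0.35 and -0.06. NDUFA5 was higher in both lines, by 0.31 and 0.49, and RefSeq lists 12 pseudogenes of it. Of the 6 core members, 3 were higher in HCT116 and 5 in HCT116-p53KO, against 51.6% and 50.5% of all genes. In HCT116-p53KO the core member NDUFV1, the flavin-binding subunit, differed most (0.36).

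The 3 complex II members differed little in the knockdowns. SDHA, the flavoprotein that oxidises succinate, differed by 0.12 in HCT116 and 0.21 in HCT116-p53KO. The membrane anchors SDHC and SDHD differed by -0.13 and -0.10 in HCT116 and by -0.17 and 0.10 in HCT116-p53KO. A second SDHC probe set with a mean level below that of the first differed by -0.60 in HCT116 and -0.20 in HCT116-p53KO. A second SDHD probe set, also of lower mean, differed by -0.25 in HCT116 and 0.19 in HCT116-p53KO. RefSeq lists 5 SDHC and 7 SDHD pseudogenes, so the values of both anchors are uncertain.

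In complex III, 6 of 7 members were lower in HCT116 and 5 of 7 higher in HCT116-p53KO. Shares above 0 in the same order were 51.6% and 50.5% of all genes. Among genes with a mean level of 9 or more they were 40.0% and 55.8%. UQCRH, the hinge protein that contacts cytochrome c1, was at 7.04 with NRF3 siRNA and 7.37 with control siRNA in HCT116, against 7.62 with NRF3 siRNA and 7.19 with control siRNA in HCT116-p53KO. UQCRQ, a small membrane subunit, differed by -0.10 and 0.40. UQCR11, another small subunit, differed by -0.23 and -0.25. Neither UQCRQ nor UQCR11 passed the limma test.

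In complex IV, COX7B, a small membrane subunit, was at 7.68 with NRF3 siRNA and 8.08 with control siRNA in HCT116, against 8.66 with NRF3 siRNA and 8.21 with control siRNA in HCT116-p53KO. The direction was opposite in the 2 lines, and the NRF3 siRNA arrays were the lowest and the highest of the 4. COX6A1 and COX5B, with RefSeq pseudogenes numbering 6 and 8, differed by -0.23 and -0.22 in HCT116 and by 0.16 and 0.04 in HCT116-p53KO. COX6C differed by 0.31 in HCT116 and 0.11 in HCT116-p53KO, and it has 18 pseudogenes in RefSeq, the most of any member. COX4I1, the common form of subunit 4, differed by -0.08 and 0.15.

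In complex V, 10 of 18 members were lower in HCT116 and 15 of 18 higher in HCT116-p53KO. As shares above 0, these are 44.4% in HCT116, against 51.6% of all genes and 40.0% of those with a mean level of 9 or more, and 83.3% in HCT116-p53KO, against 50.5% and 55.8%. The F1 head subunits ATP5F1A, ATP5F1B and ATP5F1C differed by -0.13 to 0.08 over both lines. ATP5PF, coupling factor 6 of the peripheral stalk, was at 8.92 with NRF3 siRNA and 9.31 with control siRNA in HCT116, a difference of -0.39, and differed by -0.05 in HCT116-p53KO. Its gene overlaps GABPA, which encodes the DNA-binding subunit of GABP and differed by -0.57 in HCT116 and 0.03 in HCT116-p53KO, and whether the 2 probe sets share transcripts was not tested. ATP5ME, subunit e, differed by 0.12 in HCT116 and 0.43 in HCT116-p53KO. All 6 small membrane members were above 0 in HCT116-p53KO, with a median of 0.22. ATP5IF1, the inhibitor of the enzyme, differed by 0.04 and 0.15.

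Few subunits differed by 0.32 or more in both knockdowns. NDUFAB1 was the only member lower by 0.32 or more in both lines, against 5.76% of all genes, and ATP5MG and UQCRC2 were the only members higher in both, against 5.4%. The sign was the same in both lines for 45 of 76 members, against 61.7% of all genes. COX7B, NDUFB6 and UQCRH, 3 of 76 members, were lower in HCT116 and higher in HCT116-p53KO at that size, as were 0.376% of all genes, and 0 members showed the opposite, against 0.273%. NDUFB6, a membrane-arm subunit of complex I, was at 7.51 with NRF3 siRNA and 8.15 with control siRNA in HCT116, against 8.50 with NRF3 siRNA and 8.13 with control siRNA in HCT116-p53KO. The control siRNA levels of NDUFB6 were nearly alike in the 2 lines and the NRF3 siRNA levels lay on either side of them. With 1 array per group the difference between the knockdowns could not be tested.

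The knockdown difference was smaller or more negative in HCT116 than in HCT116-p53KO for 57 of 76 members, against 56.5% of all genes, with a median gap (HCT116 minus HCT116-p53KO) of -0.17 for members and -0.05 for all genes. Genes with a mean level of 9 or more, where most members lie, were also mostly lower in HCT116 and mostly higher in HCT116-p53KO. Their gap is not given here. After loess correction the member medians were -0.0013 in HCT116 and 0.0938 in HCT116-p53KO, in place of -0.0343 and 0.1375. The gap was -0.5 or beyond for 7 members, COX7B, NDUFB10, NDUFB6, NDUFS6, NDUFV2, UQCRH and UQCRQ, against 6.7% of genes, and 0.5 or more for 0 members, against 4.05%. It was below 0 in 29 of 34 complex I members, 15 of 18 complex V members and 7 of 14 measured complex IV members. Across the 76 members the 2 knockdown differences had Pearson's r of 0.46 and Spearman's rho of 0.32, and without NDUFAB1 and UQCRC2 these were 0.28 and 0.27. Over all 13566 genes they were 0.53 and 0.42. Genes on the same 4 arrays are not independent points.

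**Figure D4:**
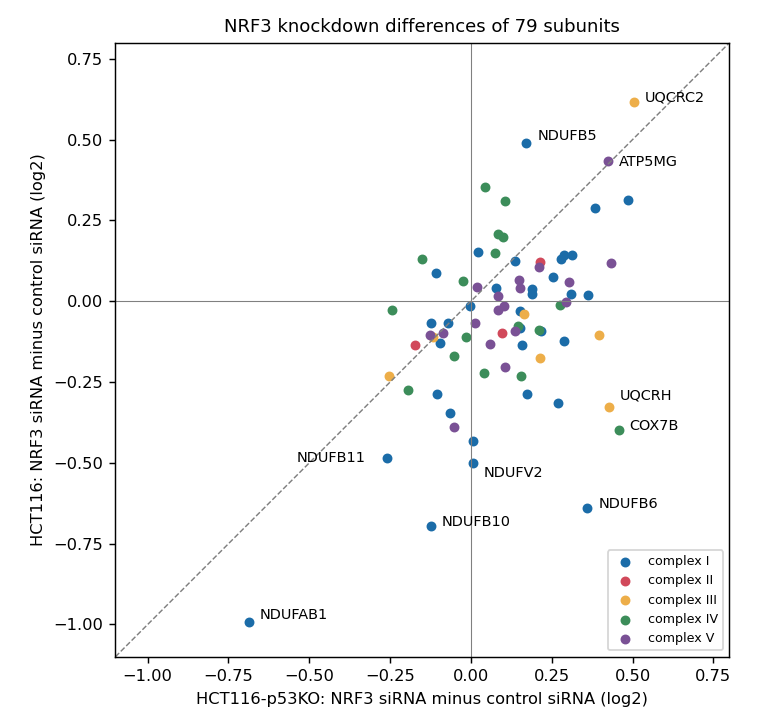
Each point is 1 of the 79 subunits, coloured by complex, with the log2 difference between NRF3 siRNA and control siRNA in HCT116-p53KO on the horizontal axis and in HCT116 on the vertical axis. The dashed line marks equal differences; 57 of the 76 measured subunits lie below it, and NDUFAB1 and UQCRC2 lie at its ends.

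In H1299 the question was what stable NRF3 expression did to the same genes. Of 73 measured members, 38 were higher and 34 lower with NRF3 than with GFP, with 1 equal on both arrays, a median of 0.01, a range of -0.56 to 0.49 and an all-gene median of 0.00, where 49.4% of all genes were higher. At 0.32 or more, 12 were higher and 4 lower, against 29.4% of all genes in either direction, 15.2% higher and 14.2% lower. At 1.5-fold the count was 0, against 9.02%. COX7A2L, which helps join complexes III and IV into supercomplexes, was highest, at 9.51 with NRF3 and 9.02 with GFP (1.40-fold). SDHD was at 10.69 with NRF3 and 10.25 with GFP, and NDUFA12, a hydrophilic-arm accessory subunit of complex I, at 10.80 with NRF3 and 10.36 with GFP. NDUFS6, which binds zinc in the same arm, differed by 0.40. The second SDHD probe set differed by 0.58, in the same direction.

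The lowest member in H1299 was COX7B2, the testis form of COX7B, at 5.68 with NRF3 and 6.23 with GFP, a low signal. NDUFS1, the largest core subunit of complex I, was at 9.02 with NRF3 and 9.49 with GFP, or 1.39-fold lower. NDUFA9, close to the ubiquinone site, was at 9.84 with NRF3 and 10.24 with GFP, and COX7B at 7.95 with NRF3 and 8.28 with GFP. NDUFS4 differed by -0.26. Among small membrane subunits of complex V, 4 of 5 measured were higher, against 49.4% of all genes, with ATP5MK at 11.88 with NRF3 and 11.53 with GFP. Both repeated quantile normalization and loess correction left 12 members at that size in place of 16, 7 higher and 5 lower.

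The 6 arrays together ask whether a subunit moved with the amount of NRF3 in all 3 lines. The limma model over all 6 arrays, more NRF3 minus less NRF3 with line as a block, called 0 of 77 members and 1 of 14492 genes (0.0069%), which was NFE2L3. At an unadjusted p of 0.05 it held 1 member, NDUFAB1, and 1615 genes. The estimate for NDUFAB1 was 0.60 (SE 0.177, adjusted p = 0.3323). By sign alone, ATP5F1B, NDUFA12 and NDUFAB1 were higher with more NRF3 in all 3 pairs, 3 of 72 measured members against 16.9% of all genes, and 13 of 72 were lower in all 3, against 16.8%. At 0.32 or more the counts were 0 and 0 of 72, against 1.11% and 1.13%. A difference under 0.32 in all 3 pairs was found for 43 of 72 members and 43.1% of all genes.

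The lines were also compared under each siRNA, where p53 loss cannot be told apart from other differences between these 2 lines. These comparisons use the same 4 arrays as the knockdowns, so they are not independent of them. With control siRNA, 43 of 76 members were higher and 33 lower in HCT116-p53KO than in HCT116, with a median of 0.02, where 51.4% of all genes were higher. The count at 0.32 or more was 2, both higher, against 14.1% of all genes in either direction, 5.27% higher and 8.86% lower, and at 1.5-fold it was 1, against 4.32%. The members were NDUFS4, at 9.43 in HCT116-p53KO and 8.83 in HCT116 (1.52-fold), and COX8A, a small complex IV subunit, at 12.33 in HCT116-p53KO and 11.95 in HCT116 (0.38). The next highest measured were NDUFA2 (0.31), SDHA (0.24) and NDUFS6 (0.22). The lowest were NDUFS7 (-0.30), the core subunit that carries the last iron-sulfur cluster before ubiquinone, UQCR10 (-0.21), ATP5MK (-0.20), UQCRQ (-0.19) and NDUFA11 (-0.19).

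With NRF3 siRNA the members lay mostly above 0 between the lines. Of 76 members, 60 were higher and 16 lower in HCT116-p53KO, with a median of 0.17 against 0.02 over all genes, of which 52.8% were higher. At 0.32 or more 17 were higher and 1 lower, against 34.5% of all genes in either direction, 18.8% higher and 15.7% lower. At 1.5-fold the count was 5, against 10.4%. The split moved with the scaling: 65.8% of members were higher after loess correction in place of 78.9%, the median was 0.0499, and 9 members reached 0.32 with loess or with repeated quantile normalization. Genes with a mean of 9 or more had a median of 0.14 in this pair. NDUFB6 was at 8.50 in HCT116-p53KO and 7.51 in HCT116, and COX7B at 8.66 in HCT116-p53KO and 7.68 in HCT116, a 1.98-fold difference for each. NDUFS6 followed at 0.80, NDUFA2 at 0.75 and NDUFS4 at 0.61. The lowest were COX4I2 (-0.34), COX6A2 (-0.26), NDUFB5 (-0.22), COX6C (-0.15) and ATP5PD (-0.12).

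Over both siRNAs, limma called 5 of 76 members between the lines, all higher in HCT116-p53KO, against 8.11% of all genes in either direction, 3.46% higher and 4.65% lower. In this fit the 2 siRNA arrays of a line stood as its replicates, so the p-values do not measure an effect of p53 loss. NDUFS4, an accessory subunit needed for a stable complex I, was higher by 0.61 (SE 0.162, adjusted p = 0.004001), and its differences under the 2 siRNAs were 0.60 and 0.61. NDUFA2 was higher by 0.53 (adjusted p = 0.01707) and NDUFS6 by 0.51 (adjusted p = 0.02532). These estimates also leaned on the NRF3 siRNA arrays. NDUFA2 differed by 0.31 with control siRNA and 0.75 with NRF3 siRNA, and NDUFS6 by 0.22 and 0.80. With control siRNA both were below the threshold of size. COX7B (0.55, adjusted p = 0.01165) and NDUFB6 (0.48, adjusted p = 0.03815) rested on the NRF3 siRNA arrays: with control siRNA they differed by 0.12 and -0.02. Only NDUFS4 was called after repeated quantile normalization (adjusted p = 0.04715) or without the intensity filter, and 0 members were called with cyclic loess, with the 6-array prior or with the spread of each gene alone. Of all genes, quantile normalization called 642 of 13308, no filter 894 of 18417 and cyclic loess 626 of 14078. The 6-array prior called 180 of 14148 and the spread of each gene alone 3 of 14148. A second NDUFS4 probe set, below 6 on all 6 arrays, differed by 0.27 with control siRNA and 1.31 with NRF3 siRNA. NDUFA2, NDUFS6 and NDUFB6 overlap the genes TMCO6, MRPL36 and SMIM27. TMCO6 differed by -0.03 with control siRNA and 0.16 with NRF3 siRNA, and MRPL36 by 0.30 and -0.10.

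Complex IV has isoforms that are restricted to certain tissues, and all of these but COX6A2 were low or near the limit here. COX4I2, the form of lung and hypoxic cells, was at 6.39 with NRF3 siRNA and 6.26 with control siRNA in HCT116, 6.06 with NRF3 siRNA and 6.21 with control siRNA in HCT116-p53KO, and 5.93 with NRF3 and 5.6 with GFP in H1299. COX6A2, the heart and muscle form, was at 7.81 with NRF3 siRNA and 7.46 with control siRNA in HCT116 (1.28-fold), and differed by 0.04 in HCT116-p53KO and -0.01 in H1299. COX7A1, also of heart and muscle, differed by 0.21 in HCT116 and 0.08 in HCT116-p53KO. The testis forms COX6B2 and COX8C stayed at 6.0 or below on all 6 arrays, so their differences carry no order. The common forms COX6B1, COX7A2 and COX8A differed by -0.17, -0.01 and 0.20 in HCT116. In HCT116-p53KO these differed by -0.05, 0.27 and 0.10, and in H1299 by -0.11, 0.17 and 0.10. The gene formerly called NDUFA4, a complex IV subunit now named COXFA4 and therefore outside the naming rule, differed by -0.15 in HCT116 and 0.06 in HCT116-p53KO, and 0.15 in H1299. Its hypoxia-induced relative COXFA4L2 differed by 0.39, -0.12 and -0.34.

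Genes that build or feed the chain are set beside the subunits, by the same limma test of NRF3 siRNA, in which 9.88% of all genes passed. With the prior of the 6-array fit, or the residual of each gene alone, 0 genes of any of these lists passed. Of all 14148 genes, 0 passed with that prior and 3 with the residual of each gene alone. COX15, COQ4 and IDH3A passed with repeated quantile normalization, with cyclic loess and without the expression filter, while UQCC2, LYRM7 and TACO1 passed with none of those 3. A trended robust prior added UQCC1, BCS1L, ACAD9 and SLC25A5, and with it 1845 of all 14148 genes passed. In the complex III list (assembly factors and cytochrome c1, CYC1), 2 of 7 passed. All 7 were higher in HCT116-p53KO, with a median of 0.50, where 50.5% of all genes were higher, and 6 of 7 were in HCT116, with a median of 0.29, where 51.6% were. UQCC2, which escorts new cytochrome b, was at 10.29 with NRF3 siRNA and 10.00 with control siRNA in HCT116, and at 10.65 with NRF3 siRNA and 9.90 with control siRNA in HCT116-p53KO, and rose by 0.52 (SE 0.162, adjusted p = 0.02018). LYRM7, a chaperone of the Rieske protein, rose by 0.55 (adjusted p = 0.01063), with 0.07 in HCT116 and 1.04 in HCT116-p53KO. UQCC1 and BCS1L had estimates of 0.44 and 0.42 and did not pass, and CYC1 was at 0.10. In H1299, UQCC2, UQCC1 and LYRM7 differed by -0.46, -0.38 and 0.57.

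In the complex IV assembly list 2 of 17 tested genes passed, against 9.88% of all genes. COX15, which makes heme A, was at 10.64 with NRF3 siRNA and 10.02 with control siRNA in HCT116, and at 10.73 with NRF3 siRNA and 9.94 with control siRNA in HCT116-p53KO, and rose by 0.70 (SE 0.162, adjusted p = 0.0005375). TACO1, a translational activator of COX1, fell by 0.49 (adjusted p = 0.0312), with -0.69 in HCT116 and -0.28 in HCT116-p53KO. In H1299, LRPPRC, which stabilises mitochondrial mRNA, and COA4 were each higher with NRF3, by 0.57 and 0.56.

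Complex I assembly had 0 of 14 calls, with ACAD9 the closest (0.45, adjusted p = 0.05644). NDUFAF7 and FOXRED1 differed by 0.05 and -0.02 in HCT116 and by 0.56 and 0.47 in HCT116-p53KO. TMEM126B, of the same list, differed by 0.48 in H1299. Complex II assembly had 0 of 2, with SDHAF2 at -0.26 and SDHAF3 at 0.01, and complex V assembly 0 of 3, with TMEM70 at -0.37, ATPAF1 at -0.27 and ATPAF2 at -0.20. At an unadjusted p of 0.05 the limma fit held 2 of these 19 genes, against 2885 of all 14148.

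Among electron carriers and feeders 1 of 19 passed, against 9.88% of all genes. This was COQ4 of ubiquinone synthesis, which rose by 0.54 (adjusted p = 0.01243). It was at 8.68 with NRF3 siRNA and 8.14 with control siRNA in HCT116 and at 8.70 with NRF3 siRNA and 8.15 with control siRNA in HCT116-p53KO. COQ8B differed by -0.83 in H1299, and PDSS2 by 0.60 in HCT116-p53KO and 0.52 in H1299. Cytochrome c itself, CYCS, differed by 0.22 in HCT116 and 0.23 in HCT116-p53KO, and 0.23 in H1299.

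In the citrate cycle and pyruvate dehydrogenase list 1 of 14 passed, against 9.88% of all genes. This was IDH3A, the catalytic subunit of NAD-dependent isocitrate dehydrogenase, which rose by 0.69 (adjusted p = 0.0007466). Its levels were 11.42 with NRF3 siRNA and 10.86 with control siRNA in HCT116 and 11.88 with NRF3 siRNA and 11.06 with control siRNA in HCT116-p53KO. IDH3B, a regulatory partner, differed by -0.44 and -0.13. In H1299, SUCLA2 was at 0.55, and OGDH at -0.44.

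Regulators of respiratory genes had 0 of 12 calls. TFAM, which packages and transcribes mitochondrial DNA, differed by -0.60 in HCT116 and -0.16 in HCT116-p53KO, and 0.48 in H1299, and TFB1M by 0.45, 0.23 and 0.11. NRF1 differed by -0.25 in HCT116 and -0.18 in HCT116-p53KO, and 0.01 in H1299, and PPRC1 by 0.20, 0.41 and 0.37. Adenine nucleotide carriers and channels had 0 of 6 calls, with the ADP/ATP carrier SLC25A5 at 0.32 in both knockdowns. In H1299 their median was 0.38, with VDAC2, VDAC1 and the phosphate carrier SLC25A3 at 0.61, 0.44 and 0.41. At an unadjusted p of 0.05 the fit held 3 of these 18 genes, against 2885 of all 14148. The 13 mitochondrially encoded subunits are not analysed here.

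**Figure D5:**
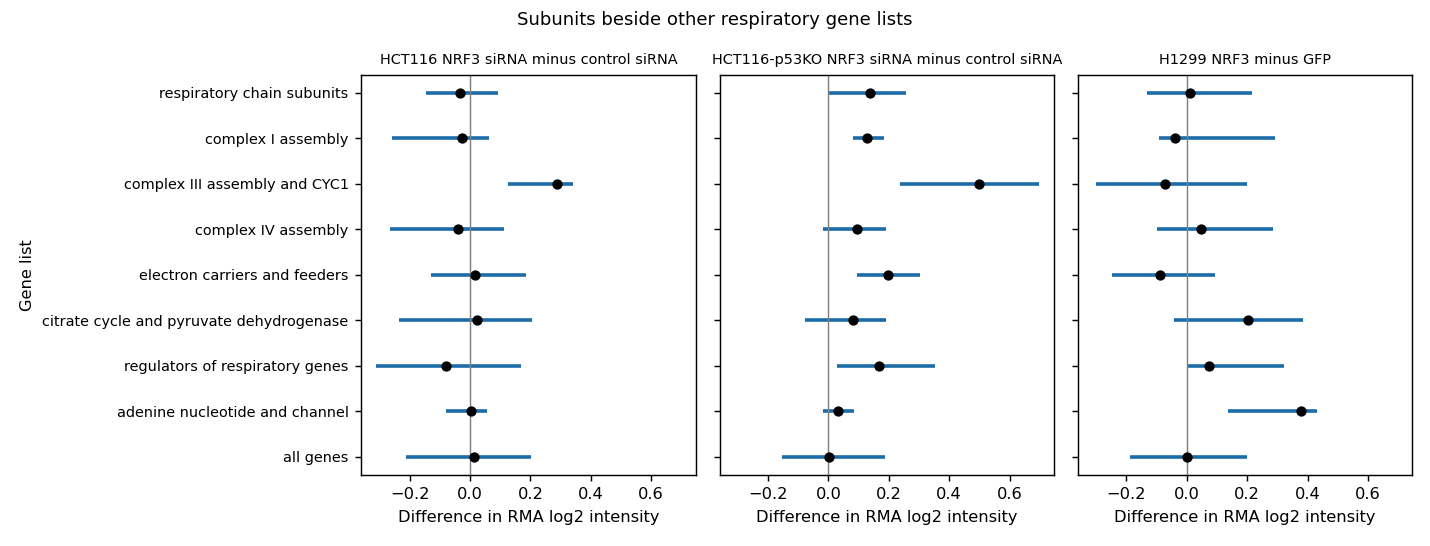
For each gene list (vertical axis) the point is the median and the line spans the quartiles of the differences in RMA log2 intensity of its measured genes in each NRF3 comparison. The complex III assembly list has medians of 0.29 in HCT116 and 0.50 in HCT116-p53KO, and -0.07 in H1299, while the respiratory chain subunits have -0.03, 0.14 and 0.01.

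Some values are uncertain because genes share sequence. RefSeq lists at least 1 pseudogene for 46 of the 79 members, 7 members had several probe sets, and 16 overlap another protein-coding gene. The 2 probe sets of NDUFB4 held the same values on all 6 arrays. Those of COX6A1 and ATP5MK had the same sign in each NRF3 pair. The second ATP5MK probe set was at 0.29 in HCT116 where the first was at 0.06. Some subunits that fit the naming rule are not analysed here.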

How the data were processed

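The 6 arrays each hold 1 RNA sample, labelled from 100 ng total RNA per the labels' protocols. Per the submitters' processing notes, the authors made RMA log2 values with Affymetrix Expression Console, and these deposited log2 intensities were used as given. The set of arrays that RMA was run on is not stated. Of 33297 probe sets, 19460 had 1 gene symbol, 1754 had several and 12083 were unlisted, and 19429 were matched to RefSeq. The probe set of highest mean stood for each gene.

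A gene entered a comparison if it reached a log2 value of 6 on at least 1 array compared. Pairs of arrays were described without a test. Models were fitted over all genes with limma 3.58.1 in R 4.3.3 (lmFit, eBayes, Benjamini-Hochberg at 0.05), with cell line as a block for NRF3 and siRNA as a block for the line comparison, and were tested on simulated data. The 4-array model has 1 residual degree of freedom, and its SE is common to all genes. The labels name no replicate cultures, so p-values measure only the spread between these samples. The number of arrays limits the precision.

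The members and gene lists were chosen with earlier results of these data known. Named genes are NFE2L3, the 5 members with the largest measured differences each way per pair, the limma calls, the tissue-restricted isoforms with their common forms, and up to 4 genes per list. Others named to describe a complex were chosen after their values were seen. Alternatives were another scaling, filter, probe set rule, prior, threshold and each line left out.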

Additional observations from a re-analysis of the deposited data

Results flagged for a closer look

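Of the 76 subunits measured in both knockdowns, 3 differed by 0.32 or more on the log2 scale in opposite directions in the 2 lines. All 3 were lower in HCT116 and higher in HCT116-p53KO, as were 0.376% of all 13566 genes measured in both. The opposite pattern was found for 0 members, against 0.273% of those genes. With 1 array per group the difference between the lines was not tested. NDUFB6 of complex I differed between NRF3 siRNA and control siRNA by -0.64 in HCT116 and by 0.36 in HCT116-p53KO. UQCRH of complex III differed by -0.33 in HCT116 and by 0.43 in HCT116-p53KO. COX7B of complex IV differed by -0.40 in HCT116 and by 0.46 in HCT116-p53KO. The signs were the same after repeated quantile normalization and after loess correction.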

How the results depend on the processing

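The NRF3 models pair the arrays of a cell line by a line block. No paired analysis was possible by replicate number, since each group has 1 array and the labels give none. The member median of HCT116-p53KO after knockdown kept its sign under all 7 alternatives (0.0938 to 0.1448). Medians near 0 did not: in HCT116 it was 0.0144 after repeated quantile normalization and 0.0224 over members with no pseudogene; in H1299 it was -0.0288 with quantile normalization, -0.0238 with loess and -0.046 over members with no pseudogene; between the lines with control siRNA it was -0.0014 with quantile normalization and -0.0058 with loess. With NRF3 siRNA the line median was 0.0499 with loess, where 9 members differed by 0.32 or more, as 9 did with quantile normalization. At 1.5-fold the members numbered 4 in the HCT116 knockdown, 1 in that of HCT116-p53KO, 0 in H1299, 1 between the lines with control siRNA and 5 with NRF3 siRNA.

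The limma test of NRF3 siRNA called 5 members with a trended robust prior (NDUFAB1, UQCRC2, ATP5MG, NDUFB10 and NDUFB11), 4 at an adjusted p of 0.10 (these without NDUFB11), 0 with the prior of the 6-array fit (4 unadjusted) and 0 with the residual of each gene alone (6 unadjusted). Of all 14148 genes, the same settings in that order called 1845, 1825, 0 and 3. Hardly any gene could pass in the last 2, so the lost calls are not particular to the members. The 6-array model called 0 members without the HCT116 pair and 0 without the HCT116-p53KO pair. Without the H1299 pair it becomes the 4-array siRNA fit, so its 2 calls, NDUFAB1 and UQCRC2, repeat that fit. The line model called 1 member with quantile normalization, 1 without the filter, and 0 with the 6-array prior (4 unadjusted), cyclic loess (4 unadjusted) or the residual of each gene alone (6 unadjusted). Of all genes, it called 642 of 13308 with quantile normalization and 894 of 18417 without the filter. It called 180 of 14148 with the 6-array prior, 626 of 14078 with cyclic loess and 3 of 14148 with single-gene residuals. The causes were not tested. The pseudogene, lowest-mean probe set, cyclic loess and single-gene residual settings were chosen after seeing the data. Members below 6 carry little signal over background.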
